A study of Homo sapiens with 16 samples.

Results

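The mitotic cyclins and kinases are the 10 genes CCNA2, CCNB1, CCNB2, CDK1, PLK1, AURKA, AURKB, CDC20, CDC25B and CDC25C, taken by gene symbol from the 26410 genes of the deposited expression tables, and all 10 were found. Poly(A) RNA was sequenced from SH-SY5Y, a human neuroblastoma cell line, in 16 libraries that form 4 groups of 4. The TRPM2 KO groups hold the single-cell clones KO11 and KO28, made with a pCas9-guide vector carrying a TRPM2 guide RNA, and the Scr groups hold the single-cell clones Scr13 and Scr16, made with a scrambled guide RNA. All 4 clones received a donor vector with GFP and puromycin markers and went through puromycin selection, so the controls share both. Each clone was sequenced in 2 biological replicates, untreated or after 24 h of doxorubicin, an anthracycline that damages DNA. The sample labels and the methods give 0.3 µM doxorubicin, and the text on the whole design gives 3 µM. TRPM2 is a calcium-permeable ion channel, and in the edited clones the start of its coding sequence is described as deleted with a frameshift in the rest. Each genotype rests on 2 clones, so a difference between genotypes and a difference between pairs of clones cannot be told apart.

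Cyclin A2 and the B-type cyclins bind CDK1, and the resulting kinase drives cells from G2 into mitosis. The CDC25 phosphatases remove the inhibitory phosphates from CDK1, PLK1 and the Aurora kinases build and supervise the spindle, and CDC20 directs the anaphase-promoting complex to destroy the cyclins at the end of mitosis. Transcripts of these genes peak in G2 and M, so in RNA from a whole culture fewer cells in G2 or M and less RNA per cell cannot be told apart. After DNA damage, p53 and its target CDKN1A (p21) hold the cell cycle and lower many of these transcripts.

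TRPM2 itself went against the labels. Reads on TRPM2 amounted to 1.93 and 2.23 normalized CPM (counts per unit of effective library size, the total reads of the library scaled by its normalization factor) in the untreated KO11 libraries and to 1.41 and 2.19 in those of KO28. The untreated Scr13 libraries held 0.118 and 0.115, and TRPM2 is listed at 0 in both untreated Scr16 libraries. After doxorubicin the values were 1.22 and 1.83 in KO11, 1.37 and 0.658 in KO28, 0.0594 and 0.0631 in Scr13, and 1.33 and 0.390 in Scr16. The untreated groups did not overlap, with the clones labelled TRPM2 KO higher by 1.47 on the log2 scale, and the groups overlapped after doxorubicin. TRPM2 passed the filter for the untreated test only through its values in the clones labelled TRPM2 KO, so no p-value is given. A library held at most 37 reads on the gene, a short deletion need not lower a count taken over all exons, and TRPM2-AS lies on the opposite strand. The clones are therefore called KO-labelled below, and every direction between genotypes is one between these labels. The cell line label was checked against its markers. Among the adrenergic neuroblastoma markers, PHOX2A, HAND2, GATA3, ISL1 and DBH lay between 124 and 2140 normalized CPM in every library, whereas TH stayed at or below 1.13 and CHGA ran from 0.356 to 26.4.

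The genes lie on chromosomes 1 (CDC20), 4 (CCNA2), 5 (CCNB1 and CDC25C), 10 (CDK1), 15 (CCNB2), 16 (PLK1), 17 (AURKB) and 20 (AURKA and CDC25B) of GRCh38. CCNB2 overlaps AC092757.2 on the same strand. On the opposite strand CCNA2 overlaps EXOSC9, CCNB2 overlaps AC092757.3, PLK1 overlaps ERN2 and AC008870.3, and CDC25C overlaps FAM53C, and whether strand was used in counting is not given in the sources used here. Near-identical copies took few reads. The most seen in a library were 76 for CDC20P1, 8 for AURKAP2 and 2 for CCNB2P1, against at least 761, 450 and 711 for CDC20, AURKA and CCNB2. The members held between 162 reads (CDC25C) and 5006 reads (CDC25B) per library.

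Promoters of this gene class are known for CCAAT boxes, bound by the factor NF-Y, and for the cell cycle genes homology region (CHR), bound by the MuvB complexes that repress or activate them through the cycle. The upstream sequences of the 5 members with a single RefSeq start site are shown because these 5 genes all fell in KO-labelled cells after doxorubicin. They cover the 120 bases before the start site on the strand of the gene (RefSeq, GRCh38.p14), with CCAAT (or its reverse complement ATTGG) and TTTGAA, the CHR letters searched, in capitals.
CCNA2, chr4:121823884-121824003, minus strand: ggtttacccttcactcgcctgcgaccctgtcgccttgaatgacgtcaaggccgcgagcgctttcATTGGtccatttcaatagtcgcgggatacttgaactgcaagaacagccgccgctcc
CCNB1, chr5:69167030-69167149, plus strand: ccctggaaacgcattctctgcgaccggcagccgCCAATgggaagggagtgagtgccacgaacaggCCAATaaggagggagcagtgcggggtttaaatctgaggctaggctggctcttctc
CCNB2, chr15:59105026-59105145, plus strand: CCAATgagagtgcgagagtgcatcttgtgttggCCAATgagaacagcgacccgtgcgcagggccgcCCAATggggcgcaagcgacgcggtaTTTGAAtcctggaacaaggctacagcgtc
PLK1, chr16:23678769-23678888, plus strand: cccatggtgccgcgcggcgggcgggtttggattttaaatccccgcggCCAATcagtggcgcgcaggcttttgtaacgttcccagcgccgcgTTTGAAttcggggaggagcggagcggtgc
CDC20, chr1:43358861-43358980, plus strand: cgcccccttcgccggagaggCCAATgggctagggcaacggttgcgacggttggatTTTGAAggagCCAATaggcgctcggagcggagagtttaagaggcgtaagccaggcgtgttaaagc

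Over 250 bases before the start site and on both strands, CCAAT occurred for 9 of the 9 members that have a RefSeq window, against 37.0% of 27305 genes. TTTGAA occurred for 5 of the 9 (CCNB2, CDC20, CDC25C, CDK1 and PLK1), against 16.1% of all genes. A gene can have several start sites, and by window CCAAT occurred in 13 of the 17 members' windows against 32.01% of 35116, and TTTGAA in 6 of the 17 against 13.3%. The matches of the 2 motifs did not overlap each other in the sequences printed. TTTGAA begins 29 bases before the start site in both CCNB2 and PLK1, and CCNB2 carries CCAAT at 244 bases, outside the stretch printed, and at 120, 87 and 54 bases. A match is a description of the letters only, and the missing TTTGAA in CCNA2 and CCNB1 says no more than that these letters are not in this window.

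In untreated Scr cells, the level per kb of exon (normalized CPM per kb) fell into steps. CCNB1 at 51.4 ± 3.32 (SD, n = 4), CDC20 at 51.2 ± 3.81, CDC25B at 47.6 ± 2.76 and CCNA2 at 42.5 ± 4.11 formed the upper step, and each overlapped its neighbour over the 4 libraries. CCNB2 at 29.2 ± 1.42, CDK1 at 27.8 ± 2.31, PLK1 at 27.3 ± 2.33 and AURKB at 25.9 ± 2.28 followed and overlapped each other too. AURKA at 15.7 ± 0.785 stood below them and CDC25C at 5.25 ± 0.550 below AURKA, each without overlap. In KO-labelled cells after doxorubicin CDC25B led at 39.9 ± 1.59 per kb, ahead of CCNA2 at 33.3 ± 1.20, CCNB1 at 30.8 ± 5.34 and CDC20 at 30.1 ± 4.46.

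**Figure D1:**
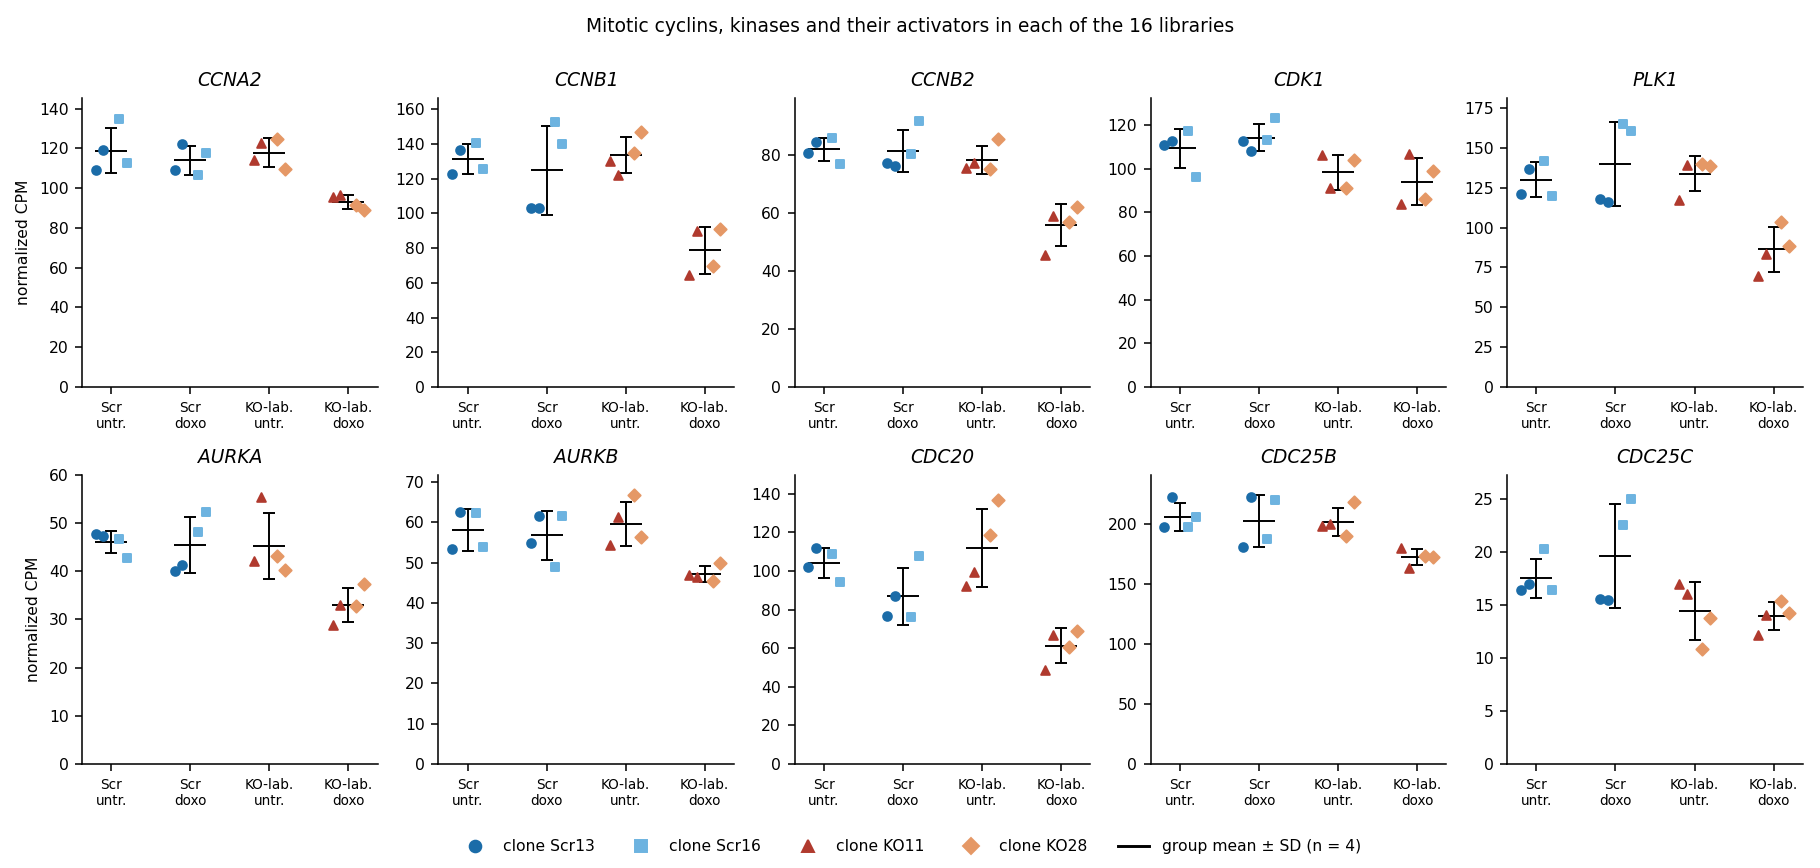
Normalized CPM of each of the 10 genes (vertical axes, starting at 0) in the 16 libraries, by group, with 1 symbol per clone and the group mean ± SD (n = 4). For 7 of the 10 genes the 4 KO-labelled libraries after doxorubicin are the lowest of all 16, and CDK1, AURKB and CDC25C are the exceptions.

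Without treatment, the mitotic genes of KO-labelled and Scr cells did not differ beyond the spread between libraries. Of the 10 genes, 0 were called by limma at an adjusted p under 0.05, 0 had an unadjusted p under 0.05, and edgeR and DESeq2 on the recovered reads called 0 as well. Of all 14364 genes tested, 2.3% were called higher and 2.54% lower. The log2 fold changes ran from -0.28 for CDC25C to 0.09 for CDC20, with a median of -0.02 beside -0.01 over all genes. PLK1, the polo-like kinase that starts spindle assembly, is typical, with a mean of 134 ± 11.1 normalized CPM in KO-labelled and 130 ± 11.1 in Scr cells (SD, n = 4 each). The intervals of the differences set limits on what this comparison could miss. The 95% confidence interval of CCNB2 reached from -0.23 to 0.10, that of CDK1 from -0.33 to 0.02 and that of CDC25C, the least abundant member, from -0.61 to 0.05.

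After doxorubicin, all 10 genes lay lower in KO-labelled than in Scr cells, and 7 of the 10 passed the test. Among all 14572 genes tested, 4.17% were called lower and 4.52% higher, and the median log2 fold change was -0.44 over the 10 genes beside 0.01 over all. The falls were led by PLK1 at -0.69 and CCNB1 at -0.65 and included CCNB2, CDC20, AURKA, CCNA2 and CDK1. In 9 of the 10 genes every KO-labelled library lay below every Scr library, which was so for 6.42% of all genes tested. For a single gene, 4 libraries against 4 cannot give a two-sided exact permutation p below 0.0286, and these 9 genes reached it. That test and the fit count the 2 replicates of a clone as separate units, although they share the clone.

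CCNB1, the B-type cyclin that activates CDK1 at mitotic entry, amounted to 64.4 and 90.0 normalized CPM in KO11 and 69.9 and 91.0 in KO28 after doxorubicin. The Scr13 libraries held 103 and 103, and the Scr16 libraries 153 and 140. All 4 KO-labelled libraries were thus below all 4 Scr libraries, and the 2 Scr clones stood well apart from each other. The log2 fold change was -0.65 ± 0.13 (SE, adjusted p = 0.00144). CCNB2, its close relative, had 45.5, 58.8, 56.6 and 62.0 against 77.1, 76.2, 80.1 and 91.7, in the same order of clones. Here the Scr clones lay closer together, and the change was -0.54 ± 0.10 (adjusted p = 0.000993). CCNA2, which acts in S phase as well as at mitotic entry, changed less. It measured 95.3, 96.4, 91.4 and 89.2 in the KO-labelled libraries and 109, 122, 107 and 118 in the Scr libraries, a change of -0.29 ± 0.08 (adjusted p = 0.0214) with no overlap.

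PLK1 had 69.7 and 83.3 normalized CPM in KO11, 104 and 88.4 in KO28, 118 and 116 in Scr13, and 165 and 161 in Scr16 after doxorubicin. The log2 fold change of -0.69 ± 0.12 was the largest among the 10 genes in this comparison (SE, adjusted p = 0.000480). AURKA, the kinase of the spindle poles, followed with 28.8, 32.9, 32.7 and 37.3 in the KO-labelled libraries against 40.0, 41.2, 48.1 and 52.3 in the Scr libraries. Its change was -0.45 ± 0.12 (adjusted p = 0.0162), and the nearest libraries of the groups were KO28 at 37.3 and Scr13 at 40.0. AURKB, the kinase of the chromosomal passenger complex, did not pass the test, with -0.26 ± 0.10 (adjusted p = 0.124), and the groups overlapped (45.3 to 49.9 against 49.0 to 61.6).

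CDC20, the activator of the anaphase-promoting complex, measured 48.7 and 66.7 in KO11 and 60.8 and 69.0 in KO28. The Scr libraries held 76.7, 86.9, 76.0 and 108 normalized CPM, all above the KO-labelled ones, and the log2 fold change was -0.49 ± 0.12 (SE, adjusted p = 0.00802). CDK1, the catalytic partner of the cyclins, was lower by less. It had 84.0, 107, 86.4 and 98.9 against 113, 108, 113 and 123, a change of -0.28 ± 0.09 (adjusted p = 0.0450), and the highest KO-labelled library nearly met the lowest Scr library. The phosphatases CDC25B (-0.23 ± 0.08, adjusted p = 0.0901) and CDC25C (-0.44 ± 0.17, adjusted p = 0.139) missed the threshold in limma, although neither gene's groups overlapped. By edgeR 6 of the 10 were called, without CDK1, and by DESeq2 8, with CDC25B. In limma CDC25B was called without the first Scr13 library, AURKB without the first Scr16 library and CDC25C without clone Scr13. The number called fell from 7 to 4 without the second Scr16 library, without the first KO11 library and with no filter on low values, and to 3 without clone KO11. With the values averaged per clone, 2 clones against 2, 5 were called, and AURKA and CDK1 lost their call. CCNB1, CCNB2 and PLK1 were called in each of the 22 alternatives run, CDC20 was lost in 2 of them, AURKA in 6, CCNA2 in 8 and CDK1 in 14. The sizes moved, with log2 fold changes from -0.9 to -0.401 for CCNB1, -0.638 to -0.445 for CCNB2 and -0.923 to -0.453 for PLK1. AURKA was lost without the second Scr16 or the first KO11 library, CCNA2 on leaving out any of 5 of the 8 libraries and CDK1 on leaving out any of 7.

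**Figure D2:**
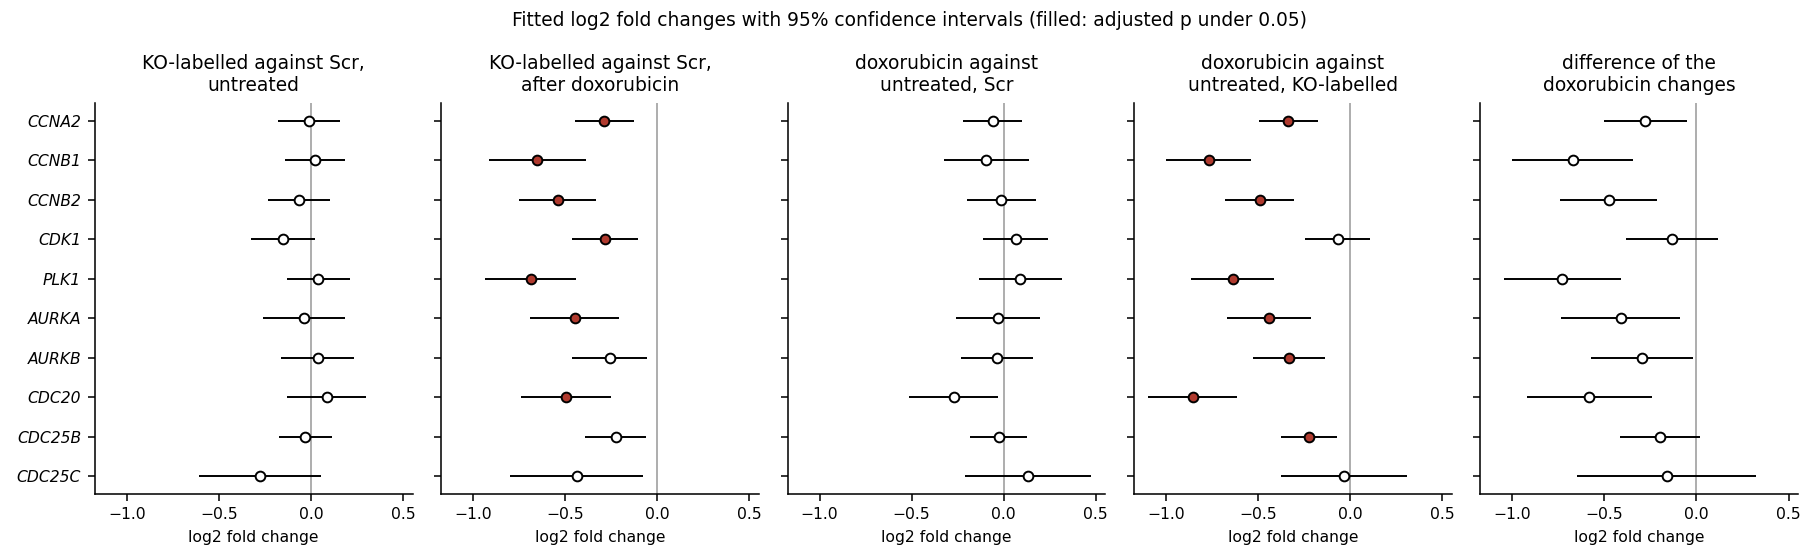
Fitted log2 fold change (horizontal axis) with its 95% confidence interval for each of the 10 genes in the 5 comparisons, filled where the adjusted p is under 0.05. Filled points appear only in the comparison of KO-labelled with Scr cells after doxorubicin (7) and in the doxorubicin change of KO-labelled cells (8), and all lie below 0.

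In Scr cells, no mitotic gene passed the test for a change with doxorubicin. Of the 10 genes, 0 were called by limma, 1 (CDC20) had an unadjusted p under 0.05, and edgeR and DESeq2 also called 0. Of the 15325 genes tested, 4.99% were called lower and 6.53% higher in Scr cells. No member had all 4 treated Scr libraries below all 4 untreated ones, as 7.97% of all genes did. The log2 changes ran from -0.27 ± 0.12 for CDC20 (SE, adjusted p = 0.142) to 0.13 ± 0.17 for CDC25C, and their median was -0.03. CDC20 averaged 104 ± 7.77 normalized CPM untreated and 86.9 ± 14.9 treated (SD, n = 4), and it was called (adjusted p = 0.0321) once the second treated Scr16 library, the highest at 108, was left out. The intervals still allow sizeable changes, from -0.33 to 0.14 for CCNB1 and from -0.13 to 0.32 for PLK1.

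In KO-labelled cells, 8 of the 10 genes fell with doxorubicin, where 7.11% of all genes tested were called lower and 9.62% higher. The same 8 had all treated libraries below all untreated ones, as 8.41% of all genes did, and each reached an exact permutation p of 0.0286, the smallest possible. CDC20 fell most, from 92.1, 99.8, 119 and 137 to 48.7, 66.7, 60.8 and 69.0 normalized CPM. Its log2 change was -0.85 ± 0.12 (SE, adjusted p = 4.28e-06), and the untreated KO28 libraries were the highest of all 16. CCNB1 fell from 130, 122, 135 and 147 to 64.4, 90.0, 69.9 and 91.0, a change of -0.77 ± 0.11 (adjusted p = 1.2e-05). PLK1 changed by -0.64 ± 0.11 (adjusted p = 0.000105), from 117 to 140 untreated to 69.7 to 104 treated. CCNB2 (-0.49), AURKA (-0.44), CCNA2 (-0.34), AURKB (-0.33) and CDC25B (-0.22) followed in size. AURKB, which missed the threshold between genotypes, fell here from 59.7 ± 5.49 to 47.1 ± 1.94 (adjusted p = 0.0152).

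CDK1 and CDC25C were the 2 members not called in KO-labelled cells. CDK1 had 107, 91.4, 91.4 and 104 normalized CPM untreated and 84.0, 107, 86.4 and 98.9 treated, so the groups overlapped throughout, and the change was -0.07 ± 0.09 (SE, adjusted p = 0.667) with a 95% confidence interval from -0.24 to 0.11. That interval does not reach the fitted changes of its cyclin partners CCNA2, CCNB1 and CCNB2, although the genes were not tested against each other. CDC25C changed by -0.03 ± 0.17, and its wider interval of -0.37 to 0.31 still reaches the fitted changes of CCNA2, AURKB and CDC25B. Without clone KO11, 4 of the 10 genes stayed called (CCNB1, CCNB2, PLK1 and CDC20), and without clone KO28 there were 5, these and AURKA. CDC25B lost its call on leaving out any of 6 of the 8 libraries and AURKB without the first untreated KO28 library.

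**Figure D3:**
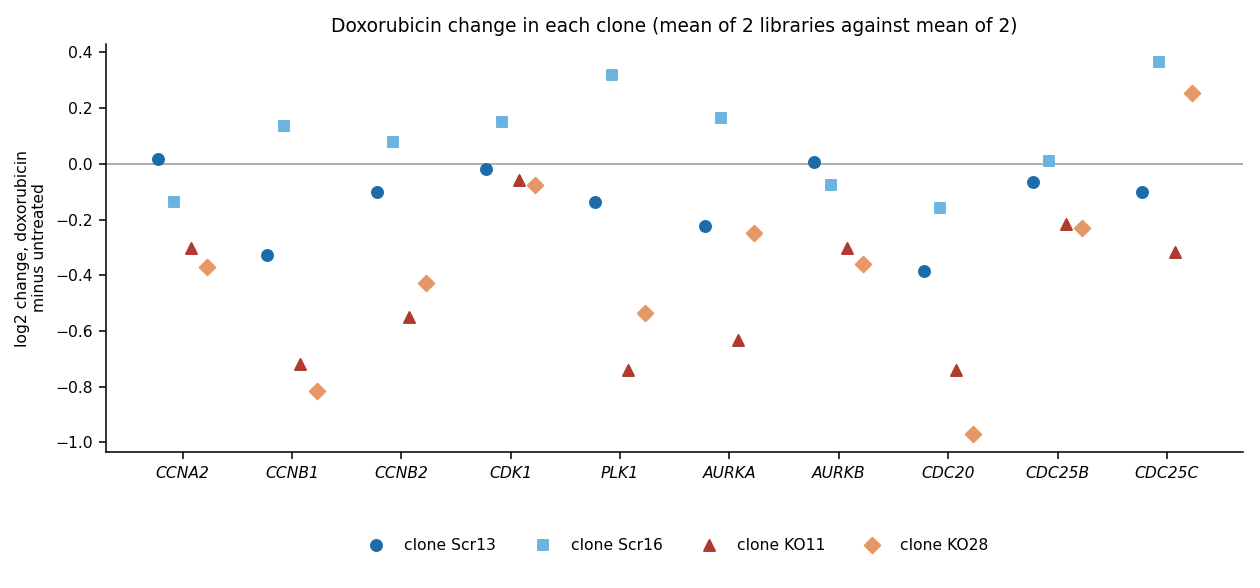
Change of each of the 10 genes with doxorubicin in each clone (vertical axis, mean log2(normalized CPM + 1) of the 2 treated libraries minus that of the 2 untreated ones), with 1 symbol per clone. The KO11 and KO28 symbols lie below 0 for every gene except CDC25C in KO28, and the Scr16 symbols lie above 0 for 7 of the 10 genes.

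By clone, the doxorubicin changes had a median of -0.43 in KO11, -0.36 in KO28, -0.10 in Scr13 and 0.11 in Scr16, on the log2 scale and with 2 libraries against 2 in each. Both treated libraries lay below both untreated ones for 9 genes in KO11 and 8 in KO28, against 6 in Scr13 and 0 in Scr16. Over all 15325 genes tested the same was so for 26.4% in KO11, 21.5% in KO28, 26.5% in Scr13 and 20.7% in Scr16. In Scr16 both lay above for PLK1, AURKA and CDC25C, as they did for 22.2% of all genes. The KO-labelled clones were close for CCNB1 (-0.72 in KO11 and -0.81 in KO28) and less so for AURKA (-0.63 and -0.25). CDC20 and CCNB1 gave -0.38 and -0.33 in Scr13, on the side of the KO-labelled clones, and -0.16 and 0.14 in Scr16.

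Whether the doxorubicin change differed between genotypes was tested as an interaction over the 16 libraries. All 10 differences lay below 0, that is towards a deeper fall in KO-labelled cells, with a median of -0.35 beside 0.02 over all genes, but 0 of the 10 passed the adjusted threshold in limma and 0 in edgeR. Among all 15325 genes tested, 3 were called in either direction, or 0.0196%. An unadjusted p under 0.05 was reached by 7 of the 10. PLK1 came closest at -0.73 ± 0.16 (SE, adjusted p = 0.126), followed by CCNB1 at -0.67 ± 0.16 (adjusted p = 0.140), CCNB2 at -0.48 ± 0.13 (adjusted p = 0.215) and CDC20 at -0.58 ± 0.17 (adjusted p = 0.260). DESeq2 called 2 (CCNB1 and PLK1), and PLK1 was called with the clone as a fixed term. CCNB1 and PLK1 were also called without clone Scr13, and with a replicate block of clone and replicate number. The changes called in KO-labelled cells and not called in Scr cells are therefore not shown to differ between the genotypes at this threshold. This comparison and those above share libraries and do not support each other independently.

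Among the regulators of CDK1, 13 of 14 genes were tested. Of these, 2 were called lower in KO-labelled than in Scr cells after doxorubicin, WEE1 at -0.36 ± 0.09 (SE, adjusted p = 0.00823) and MASTL at -0.28 ± 0.09 (adjusted p = 0.0437), and 0 were called higher. WEE1 places the inhibitory phosphate on CDK1 and MASTL blocks the phosphatase that opposes it, so an inhibitor and a helper of the kinase moved the same way. The list median was -0.24. With doxorubicin, 7 fell in KO-labelled cells, led by CDC25A (-0.50), CDKN3 (-0.45), CKS2 (-0.44) and PKMYT1 (-0.35), and 1 fell in Scr cells, CDC25A at -0.32 ± 0.10 (adjusted p = 0.0320). Without treatment 0 of the 13 were called between genotypes by limma, edgeR or DESeq2, and 1 (CKS1B) had an unadjusted p under 0.05.

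Among 11 partners of the Aurora and Polo kinases, 7 were called lower in KO-labelled cells after doxorubicin and 0 higher, with a list median of -0.32. NEK2, a centrosome kinase, led at -0.53 ± 0.11 (SE, adjusted p = 0.00329). TPX2, which activates AURKA on spindle microtubules, measured 174, 208, 208 and 218 normalized CPM in the KO-labelled and 240, 281, 260 and 318 in the Scr libraries, without overlap, a change of -0.44 ± 0.09 (adjusted p = 0.00197). CDCA8, the borealin subunit of the AURKB complex, followed at -0.42 and the checkpoint kinase BUB1 at -0.38. With doxorubicin 7 fell in KO-labelled cells, led by BIRC5 (survivin) at -0.69 ± 0.08 (adjusted p = 2.51e-07), CDCA8 at -0.50 and BUB1 at -0.45. In Scr cells 1 fell, BIRC5 at -0.32 ± 0.08 (adjusted p = 0.00828). Untreated, 0 of the 11 were called by limma, edgeR or DESeq2, and 0 had an unadjusted p under 0.05.

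Of 24 genes of the anaphase-promoting complex and the spindle checkpoint, 5 were called lower in KO-labelled cells after doxorubicin and 0 higher, and the list median was -0.10. They were UBE2C and UBE2S, the E2 enzymes of the complex, its brake BUB1B, its substrate PTTG1 (securin) and ESPL1 (separase). UBE2C measured 77.6, 92.8, 84.4 and 97.0 normalized CPM against 115, 133, 132 and 151, a change of -0.59 ± 0.09 (SE, adjusted p = 0.000153) with no overlap. None of the 14 CDC16 to ANAPC16 subunit genes of the list was called in that comparison by limma, edgeR or DESeq2, and 0 had an unadjusted p under 0.05. With doxorubicin, 9 of the 24 fell in KO-labelled cells, led by BUB1B (-0.54), MAD2L1 (-0.52) and the subunit gene ANAPC15 (-0.52), and 1 fell in Scr cells, MAD2L1 at -0.40 ± 0.08 (adjusted p = 0.00108). ANAPC15 was at -0.46 ± 0.16 in Scr cells, missed by limma (adjusted p = 0.0548) and called by DESeq2. The difference of its changes was -0.05 ± 0.22 (adjusted p = 0.983). Untreated, 0 were called between genotypes by limma, edgeR or DESeq2, and 1 (MAD1L1) had an unadjusted p under 0.05.

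**Figure D4:**
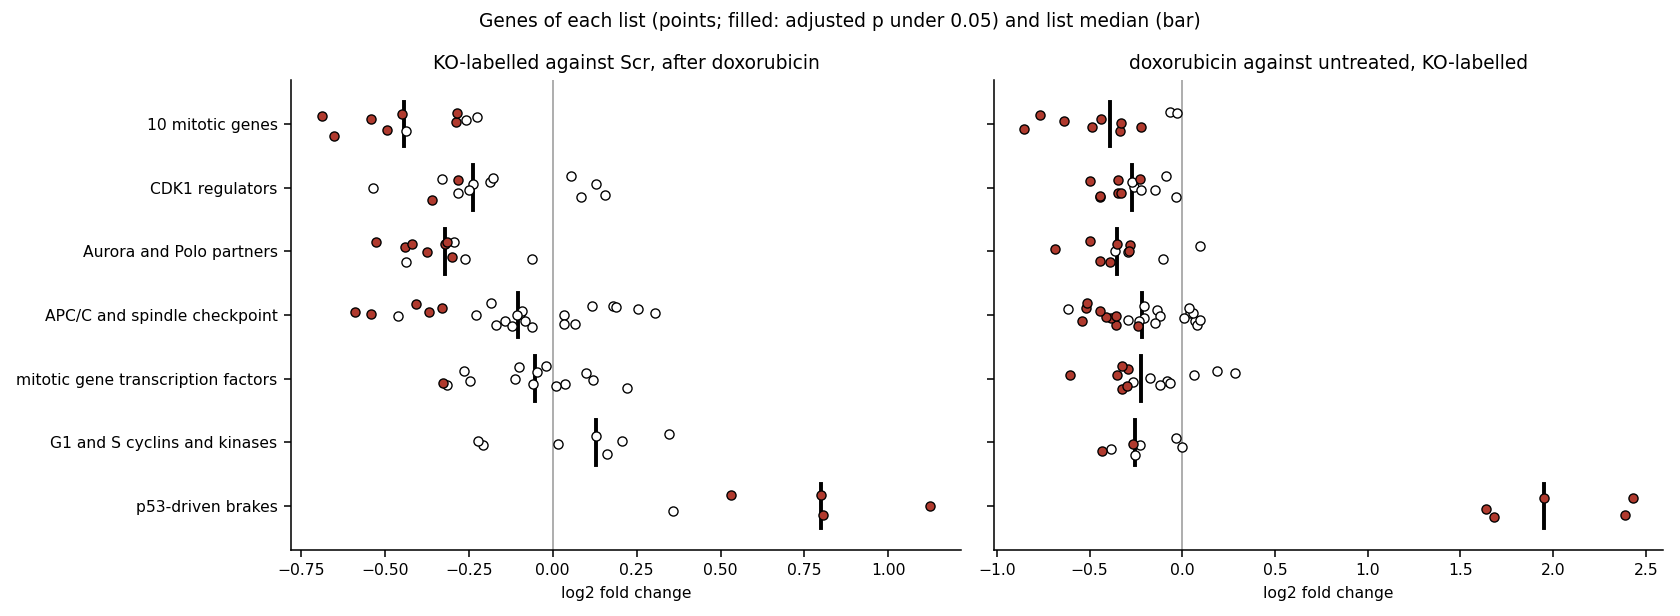
Log2 fold change (horizontal axis) of the genes of 7 lists in KO-labelled against Scr cells after doxorubicin (left) and in doxorubicin-treated against untreated KO-labelled cells (right), 1 point per gene tested, filled where the adjusted p is under 0.05, with a bar at the list median. The 10 mitotic genes and the Aurora and Polo partners lie below 0 almost throughout, and the p53-driven brakes lie above 0 in both panels.

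Of 14 transcription factor genes that act on mitotic promoters, 1 was called between genotypes after doxorubicin, FOXM1. FOXM1, the forkhead factor that drives G2 and M genes, had 246, 231, 247 and 263.4 normalized CPM in the KO-labelled and 277, 333, 312 and 320 in the Scr libraries, without overlap (log2 fold change -0.33 ± 0.07, SE, adjusted p = 0.00604). MYBL2, its partner in activating these promoters, was at 234, 234, 232 and 232 against 269, 346, 222 and 298. The Scr libraries spread widely, 1 of them lay below all KO-labelled ones, and the change of -0.26 ± 0.10 was not called (adjusted p = 0.102). With doxorubicin, 6 of the 14 fell in KO-labelled cells, led by MYBL2 (-0.61), RBL1 (-0.35), NFYB (-0.33) and FOXM1 (-0.32). In Scr cells 3 fell, NFYB (-0.39), RBBP4 (-0.33) and TFDP1 (-0.23), and untreated 0 were called between genotypes by limma, edgeR or DESeq2, with 1 (TFDP1) at an unadjusted p under 0.05. The list median was -0.05 between genotypes after doxorubicin.

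The p53-driven brakes moved the other way and also in Scr cells. Of 7 genes 5 were tested, and all 5 rose with doxorubicin in Scr and in KO-labelled cells, with list medians of 1.58 and 1.95. CDKN1A measured 75.1, 46.9, 42.3 and 63.8 normalized CPM in untreated Scr libraries and 124, 123, 158 and 141 in untreated KO-labelled ones. With doxorubicin it reached 340, 365, 304 and 340 in Scr and 788, 739, 677 and 742 in KO-labelled libraries, and no group overlapped another. The doxorubicin change was 2.58 ± 0.12 in Scr and 2.43 ± 0.12 in KO-labelled cells (SE), and the difference of the changes was -0.15 ± 0.16 (adjusted p = 0.896). KO-labelled cells held more of it in both states, by 1.27 ± 0.14 untreated (adjusted p = 3.36e-06) and 1.13 ± 0.08 after doxorubicin (adjusted p = 1.98e-09). BTG2 was higher in both states as well (0.71 and 0.80), and GADD45A (0.53) and PLK2 (0.80) were called after doxorubicin only.

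**Figure D5:**
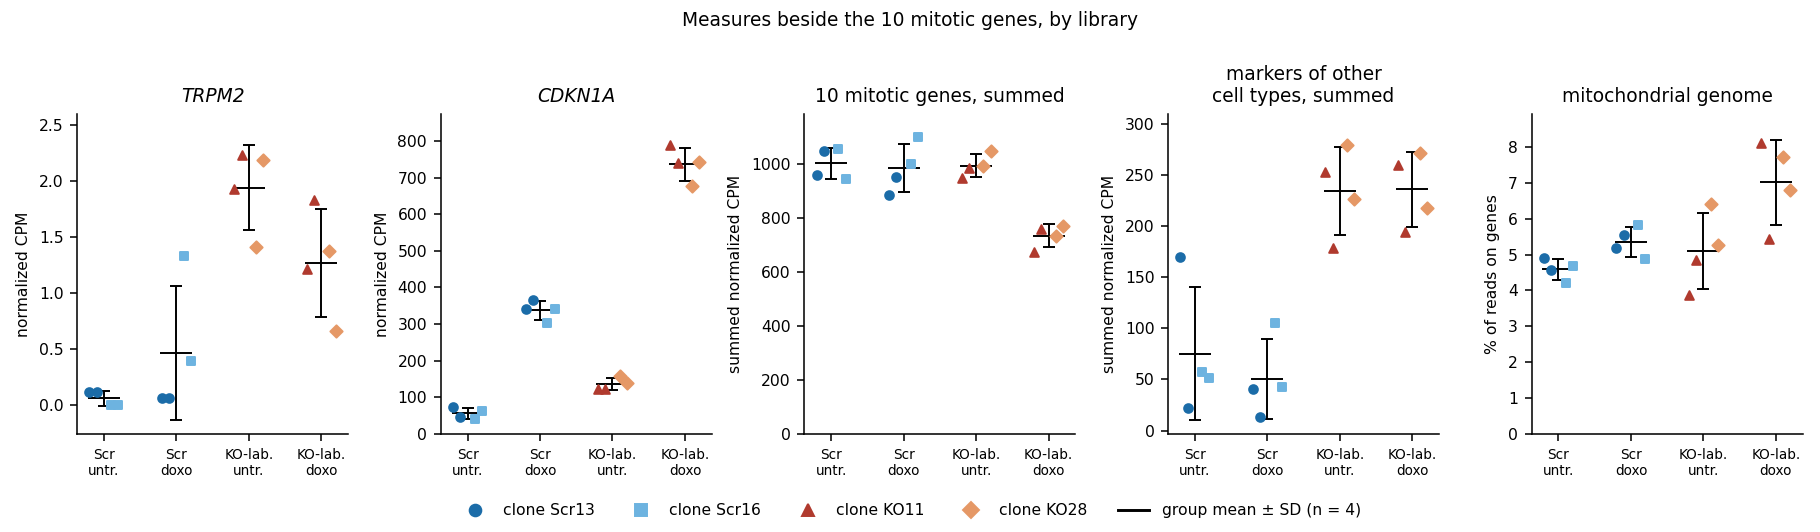
TRPM2 and CDKN1A (normalized CPM), the summed normalized CPM of the 10 mitotic genes and of markers of other cell types, and the percentage of reads on genes that fall on the mitochondrial genome, in the 16 libraries, with group mean ± SD (n = 4). The sum of the mitotic genes is low only in treated KO-labelled libraries, and the marker sum is high in KO-labelled libraries with and without doxorubicin.

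Measures of other kinds moved with the groups too. Of 12 markers of other cell types, 7 were in the tables, and PTPRC, CD3E, PECAM1, CDH5 and ALB were not analysed here. Their sum was 74.9 ± 64.9 normalized CPM in untreated Scr, 234 ± 42.7 in untreated KO-labelled, 50.5 ± 38.7 in treated Scr and 236 ± 36.2 in treated KO-labelled libraries (SD, n = 4). A single library raised each Scr mean, the first untreated Scr13 library at 170 (43.4 without it) and the first treated Scr16 library at 105 (32.3 without it), and in neither state did a Scr library reach a KO-labelled one. The fibroblast collagen COL3A1 was the most abundant in every library, 5 of 6 genes tested were called higher in KO-labelled cells untreated (COL1A1, COL3A1, LUM, DCN and PDGFRA) and 4 of 6 after doxorubicin, with list medians of 1.46 and 1.98 on the log2 scale, and the epithelial marker EPCAM was at 0 in 2 libraries and at most 1.82. With doxorubicin, limma called 1 of the 6 higher (DCN) and 1 lower (PDGFRA) in KO-labelled cells, and 0 in Scr cells. Reads on the mitochondrial genome made up 4.58% ± 0.292 in untreated Scr, 5.10% ± 1.05 in untreated KO-labelled, 5.35% ± 0.424 in treated Scr and 7.01% ± 1.19 in treated KO-labelled libraries. With these reads left out before normalization, a setting added after the values were seen, 7 of the 10 genes were again called between genotypes after doxorubicin and 8 with doxorubicin in KO-labelled cells. The part of the other markers in the result was not tested.

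Across the 16 libraries the members varied together. The correlation of each with the mean of the other 9, on standardized log2 values, was highest for CCNB2 (r = 0.97), CCNB1 (0.90), PLK1 (0.89) and AURKA (0.88) and lowest for CDK1 (0.62) and CDC25C (0.51). Of 10042 other genes with a mean of at least 10 normalized CPM, those most like the members' mean profile were TPX2 (r = 0.95), DEPDC1 (0.94), KIF2C (0.93), KPNA2 (0.93), KIF20A (0.93), KHDRBS1 (0.92), GTSE1 (0.92), UBE2C (0.91), PTTG1 (0.90) and CENPF (0.90). The 16 points share clones and groups, so these values describe the libraries and carry no test.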

How the data were processed

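Poly(A) libraries were made with a directional kit. The submitters' processing notes name bcl2fastq, HISAT2 2.1.0, HTSeq, edgeR and GRCh38, and the annotation release and strand setting are not given in the sources used here. The authors deposited a normalized signal, reads over the effective library size (normalized CPM), in 1 table per treatment. Whole reads were recovered for 100% of the values (tolerance 0.001 reads). Over the 16 libraries the factors multiply to a geometric mean of 1.00, so the tables share 1 normalization and were compared directly. The tables also hold deposited log2 fold changes, p-values and q-values of the authors' own edgeR comparison of TRPM2 KO with Scr, which were not used, and 0 columns of library values were left over. Libraries held 10481177 to 25086085 reads on genes (median 16037366.5), and 3 reads correspond to 0.118 to 0.285 normalized CPM, counting error only.

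Log2(normalized CPM + 1) was tested with limma 3.58.1 (R 4.3.3, moderated, with an abundance trend), keeping genes that reached 1 normalized CPM in 4 or more libraries, with Benjamini-Hochberg adjustment over all genes tested at 0.05. The fold changes are on that scale and understate changes of low genes. KO-labelled and Scr libraries were compared within a treatment (8 libraries). Doxorubicin changes and their difference came from 1 fit of 4 groups (16 libraries), with no clone term. Replicates of a clone differed beyond sampling noise (mean chi-square per gene 7.79 to 16.9), so none was a duplicate. The fits were tested on simulated data with 200 genes changed by 1 on the log2 scale. For the difference of the changes 54% of them were recovered, and 9.24% of the calls were false. In the other comparisons 70% to 78% were recovered, and 4.55% to 6.71% of the calls were false. Recovery of changes smaller than 1 was not tested. All fitted changes of the 10 genes were smaller than that, the largest being -0.85 for CDC20 with doxorubicin in KO-labelled cells. Exact permutation tests of single genes (SciPy 1.17.1) were two-sided. Symbols came from a separate gene name reference, with the GENCODE 29 name where it held none. Positions came from GENCODE 29, exon length is the union of its exons, and promoters came from RefSeq. Alternatives were edgeR 4.0.16 quasi-likelihood and DESeq2 1.42.0 on recovered reads, no filter, a pseudocount of 0.25, other scalings, clone and replicate terms, and each library or clone left out. The members and lists were chosen with earlier results of these data known. All 10 members are reported, and each list is given by its counts and a median (the adrenergic markers by their levels and GATA3 alone), with up to 4 called genes with the largest change in a comparison, plus CDKN1A, WEE1, FOXM1, MYBL2, TPX2 and UBE2C. The 10 genes most like the members are those with the highest Pearson r to their mean standardized profile. UBE2S, CCND1, CCNA1 and CCNB3 fall outside this rule and were named after their values were seen. A marker gene of the lists is not reported here.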

Additional observations from a re-analysis of the deposited data

Results flagged for a closer look

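In groups of 4 libraries, 40 groups of values of the 10 mitotic genes were examined for 1 library far from the rest, which chance gives in about 1 in 20 groups. PLK1 was 117 normalized CPM in the first untreated KO11 library, below the other untreated KO-labelled libraries at 139 to 140. CDC25C was 20.3 in the first untreated Scr16 library, above the other untreated Scr libraries at 16.4 to 17.0.

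Clones of the same label moved in opposite directions with doxorubicin for 3 genes, with both treated libraries of 1 clone below and both of the other above its untreated libraries, and the differences between clones were not tested. In Scr cells the log2 change of PLK1 was -0.14 in Scr13 and 0.32 in Scr16, that of AURKA -0.22 and 0.16, and that of CDC25C -0.10 and 0.36. In KO-labelled cells CDC25C changed by -0.32 in KO11 and by 0.25 in KO28.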

How the results depend on the processing

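None of the alternatives turned the sign of a called change of the 10 genes, and the signs that turned belong to changes that were not called. The calls of the 10 genes between untreated groups stayed at 0 in all 22 alternatives. The members called after doxorubicin between genotypes were 4 with no filter and 3 without clone KO11, and those called with doxorubicin in KO-labelled cells were 4 without clone KO11 and 5 without clone KO28. For the difference of the changes, 2 were called by DESeq2, 2 without clone Scr13 and 1 with the clone as a fixed term, and the cause was not tested. With each library left out, the members called ranged from 4 to 7 between genotypes after doxorubicin and from 0 to 1 with doxorubicin in Scr cells.

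The replicate number was used as a block because the labels number the replicates, but same-numbered replicates of a clone did not deviate together (correlation of the replicate differences with and without doxorubicin -0.0250 to 0.0865 in the 4 clones), so the numbers are not taken as pairs. With the block of replicate number, 0, 7, 0, 8 and 0 members were called in the 5 comparisons, as without it, and 697, 1365, 1871, 2661 and 7 genes. With a replicate block of clone and replicate number, 2 members (CCNB1 and PLK1) and 22 genes were called for the difference of the changes.

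Among all genes, no filter gave 368 calls untreated (695 in the comparison as reported) and 5 for the difference (3 as reported), and DESeq2 gave 31. Untreated calls were 330 without Scr13 and 327 without Scr16. After doxorubicin 1266 genes were called, 510 without KO11, 575 without KO28, and 814 to 1314 with each library left out. With doxorubicin in Scr cells 1764 were called, 452 without Scr13 and 781 without Scr16, and in KO-labelled cells 2564, 856 without KO11 and 1320 without KO28. For the difference 5 were called without Scr13, 0 without Scr16, 0 without KO11, 1 without KO28, and 1 to 4 with each library left out. The settings without a clone or a library hold fewer libraries, and the cause of the other shifts was not tested.

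Signs that turned on leaving out a clone were, between untreated groups, CCNA2 at 0.0459 without Scr16, AURKA at 0.00617 without Scr13, and without KO28 CCNB1 at -0.0581, PLK1 at -0.0208, AURKA at 0.0657, AURKB at -0.00445 and CDC20 at -0.118 (log2). With doxorubicin in Scr cells they were, without Scr16, CCNA2 at 0.0177, CDK1 at -0.0200, PLK1 at -0.135, AURKB at 0.00755 and CDC25C at -0.102, and without Scr13 CCNB1 at 0.137, CCNB2 at 0.0769, AURKA at 0.164 and CDC25B at 0.0103. CDC25C was at 0.254 in KO-labelled cells without KO11, and its difference of changes at 0.0710 without Scr16 and 0.122 without KO11. With each library left out, the untreated differences ranged from -0.0493 to 0.0522 for CCNA2, -0.0252 to 0.0640 for CCNB1, -0.136 to 0.0134 for AURKA, -0.0158 to 0.0805 for AURKB, -0.0150 to 0.174 for CDC20 and -0.0667 to 0.00919 for CDC25B. The doxorubicin changes in Scr cells ranged from -0.0983 to 0.00332 for CCNA2, -0.0711 to 0.0166 for CCNB2, -0.0988 to 0.0279 for AURKA, -0.0750 to 0.0329 for AURKB and -0.0746 to 0.0261 for CDC25B, and that of CDC25C in KO-labelled cells from -0.151 to 0.0497.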

Other observations

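Of 8 relatives of the members outside the 10 genes 6 were tested, and AURKC and PLK5 were too low. PLK2 and PLK3, Polo-like kinases known as stress-induced p53 targets, rose with doxorubicin, PLK2 from 6.76 ± 1.78 to 21.9 ± 2.63 normalized CPM in Scr and from 6.64 ± 1.36 to 38.7 ± 3.31 in KO-labelled cells (SD, n = 4), and PLK3 from 9.05 ± 2.11 to 28.3 ± 4.07 and from 11.03 ± 1.62 to 36.3 ± 3.22. PLK2 was also higher in KO-labelled than in Scr cells after doxorubicin, by 0.80 ± 0.12 on the log2 scale (SE, adjusted p = 0.00013), and the difference of its doxorubicin changes was 0.81 ± 0.24 (adjusted p = 0.325). Between genotypes after doxorubicin PLK2 was the 1 relative called, and the median of the 6 was -0.14, while with doxorubicin 2 rose and 1 fell in each genotype, with medians of 0.06 in Scr and -0.01 in KO-labelled cells. CDC25A, the phosphatase of the family that acts at the G1/S transition, fell in both genotypes. CCNA1 and CCNB3, cyclins known from the germ line, had means of at most 6.41 normalized CPM in any group and were not called in any of the 5 comparisons.

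Of the G1 and S cyclins and kinases, 7 of 8 were tested, and CCND2 was not analysed here. None was called between genotypes after doxorubicin by limma, edgeR or DESeq2 (4 had an unadjusted p under 0.05), where the list median was 0.13, and CDK6 was called higher in untreated KO-labelled cells (493 ± 72.3 against 362 ± 41.8 normalized CPM, adjusted p = 0.00557). CDK4 (-0.43) and CDK2 (-0.27) fell with doxorubicin in KO-labelled cells, and CCNE2, an E-type cyclin, fell in Scr cells from 16.6 ± 2.46 to 8.98 ± 1.60 (adjusted p = 0.00194). In KO-labelled cells CCNE2 went from 13.2 ± 2.20 to 9.88 ± 1.49 and was not called (adjusted p = 0.142). The difference of the doxorubicin changes was called for 0 of the 7 genes. CCND1, the most abundant of the list in total, stood at 2345 ± 249 and 2258 ± 369 in untreated and treated Scr cells and at 2269 ± 47.9 and 2264 ± 51.1 in KO-labelled cells.

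Among the adrenergic neuroblastoma markers, GATA3 was higher in untreated KO-labelled than in untreated Scr cells (log2 fold change 0.32 ± 0.09, SE, adjusted p = 0.0344). The groups overlapped, and after doxorubicin GATA3 was not called (0.18 ± 0.08, adjusted p = 0.224). The markers of this list did not share 1 direction, so GATA3 does not stand for the list.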
